A study of Mus musculus with 4 samples.

Results

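The 35 genes described here are those of the cell's answer to amino acid shortage: the transcription factor Atf4, its partners and targets, enzymes of asparagine, serine, one-carbon and proline metabolism, and 20 genes for cytosolic aminoacyl-tRNA synthetases. They were taken by gene symbol from a table of 17393 genes, and all 35 were found there. By role they comprise 7 sensors and factors of the response, 6 enzymes for asparagine, serine and one-carbon units, 2 proline enzymes and the 20 synthetase genes.

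The RNA came from DS19 cells, a mouse erythroleukemia (MEL) line of transformed red cell precursors that can be pushed toward a red cell-like state with dimethyl sulfoxide. The series compares wild-type cells (2 libraries) with Wdr26 knockout cells (Wdr26-/-, 2 libraries), asking how loss of Wdr26, a subunit of the CTLH E3 ubiquitin ligase, alters gene expression. All cells shared a medium with serum, glutamine, pyruvate and added non-essential amino acids. The labels mention dimethyl sulfoxide in the culture medium without saying whether the sequenced cells had received it, and they do not say how the knockout was made, whether it is 1 clone, or whether libraries 1 and 2 came from separate cultures. A p-value here therefore sets the genotype difference against the scatter of these samples only. That scatter may be technical and need not hold the spread between clones or cultures.

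When amino acids run short, uncharged tRNA activates the kinase Gcn2 (Eif2ak4), which phosphorylates the translation initiation factor eIF2. General protein synthesis is then lowered, while the Atf4 message is translated more efficiently through its upstream reading frames. The Atf4 protein pairs with C/EBP family members at composite promoter elements and switches on genes for amino acid synthesis, uptake and tRNA charging. Sister kinases feed the same step, among them Hri (Eif2ak1), which in red cell precursors couples globin synthesis to the supply of heme. Since Atf4 is controlled largely through translation, its RNA level alone does not report the activity of the protein.

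Promoter windows are shown for 6 members because they carry the C/EBP-ATF element through which Atf4 is known to act. RefSeq promoters (GRCm38.p6, 250 bases before to 50 bases after the start) were matched by gene ID for 28 of the 35 members. Cars, Hars, Lars, Nars, Rars, Vars and Wars had no entry. The single motif searched was TGATGNAA, which reads TTNCATCA when it lies on the opposite strand. Each window runs 5′ to 3′ on the strand of the gene, and capitals mark the match.
Atf3, chr1:191183416-191183463, minus strand: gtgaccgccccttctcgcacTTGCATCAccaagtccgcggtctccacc
Chac1, chr2:119351029-119351076, plus strand: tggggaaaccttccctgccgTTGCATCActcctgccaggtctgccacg
Iars, chr13:49682117-49682154, plus strand: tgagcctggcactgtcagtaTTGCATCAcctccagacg
Gars, chr6:55037951-55037998, plus strand: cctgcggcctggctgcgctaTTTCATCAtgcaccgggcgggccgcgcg
Aars, chr8:111033710-111033757, plus strand: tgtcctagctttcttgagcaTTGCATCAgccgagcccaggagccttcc
Asns, chr6:7693205-7693252, minus strand: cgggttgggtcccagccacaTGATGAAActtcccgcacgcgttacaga

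A match was present in the promoters of 10 of the 28 members (35.7%), against 4.51% of all 27025 genes in the promoter table and 2.45% of the 8293 tested genes that had a promoter. Counted by promoter, 3.97% of all 32851 held one. Besides the 6 shown, Trib3, Pycr1, Tars and Yars held a match. Counted from the start in the promoter table at +1, the first base of the match lay at −193 in Chac1, −112 in Aars, −110 in Atf3, −30 in Gars, −23 in Asns and +8 in Iars, and Aars had another at +10. That start is the outer end of the RefSeq gene for 22 of the 29 promoters of members. For Aars it lies inside the gene, which is listed from 111027778 to 111055569 on chromosome 8. A match is a run of letters and was not shown here to bind any factor. These windows are taken up again beside the expression values below.

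**Figure D1:**
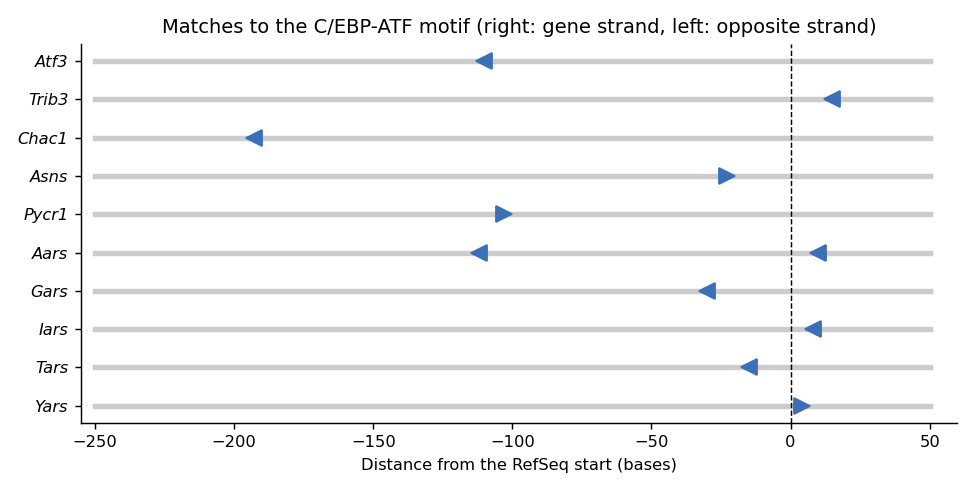
Position of each match to TGATGNAA (10 member promoters, grey bars from 250 bases before to 50 after the RefSeq start, dashed line at the start). Triangles point right for the gene strand and left for the opposite strand; Aars is the member with 2 matches, and those of Trib3, Iars and Yars lie just after the start.

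Expression is given as FPKM, that is, fragments scaled to the length of the transcript and to the depth of the library, so that levels can be set side by side between genes. Depth, estimated from the smallest steps in the values, was between about 26200000 and 27300000 fragments per library, and 10416 to 10603 genes reached 1 FPKM. Wdr26 itself stood at 55.39 and 52.41 FPKM in wild-type libraries 1 and 2 and at 9 and 7.84 FPKM in knockout libraries 1 and 2. Its log2 difference was −2.55 with a standard error of 0.14 (adjusted p = 0.0063 by limma with Benjamini-Hochberg adjustment). Of 8 erythroid markers, 8 were above 1 FPKM in every library. None of the 8 passed the threshold. In both knockout libraries 5 were lower and 0 higher, against 10.8% and 29.9% of all genes. The anion exchanger gene Slc4a1 stood at 436.06 and 284.78 in wild-type cells, against 48.58 and 6.70 FPKM in the knockout (log2 difference −4.18 with a standard error of 0.80, limma adjusted p = 0.166). The transferrin receptor gene Tfrc stood at 530.94 and 397.11 in wild-type cells, against 314.14 and 186.58 FPKM in the knockout (log2 difference −0.92 with a standard error of 0.28, limma adjusted p = 0.313). Their part in the members' values was not tested. The summed level of the 8, chiefly globin, ran from 1.673e+05 to 2.065e+05 FPKM in wild type and from 1.523e+05 to 1.783e+05 FPKM in the knockout. Myeloid and mast cell markers summed to at most 0.98 FPKM, lymphoid markers to at most 0.36 FPKM and the fibroblast marker Col1a1 to at most 0.58 FPKM, with Elane and Cd3e listed at 0 throughout. The 3 megakaryocyte markers differed widely in level. Itga2b was present at 215.40 to 239.95 FPKM (log2 difference 0.09 with a standard error of 0.13). Pf4 ran from 22.80 (library 1) to 58.22 (library 2) in wild-type cells, and from 21.35 to 37.86 FPKM in the knockout. Its log2 difference was −0.35 with a standard error of 0.46. Gp1bb lay between 0.20 and 1.16 FPKM. The sum of the 3, chiefly Itga2b, was 238.9 (library 1) and 290.9 (library 2) in wild-type cells, against 262.5 and 273.4 FPKM in the knockout. In RNA from a whole culture, fewer cells of a type and less RNA per cell cannot be told apart.

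The response genes were expressed at clearly different levels in both genotypes. Asns, Ppp1r15a and Atf4 were the most abundant, with means over the 4 libraries of 111, 109 and 90.9 FPKM. Pycr1, Chac1 and Atf3 were the least abundant, at 0.88, 1.17 and 1.53 FPKM, which corresponded to about 54 to 85, 35 to 62 and 52 to 113 fragments per library. Every synthetase gene was well expressed, with means from 9.56 FPKM for Lars to 74.7 FPKM for Qars. A filter of at least 1 FPKM in at least 2 libraries kept 34 of the 35 members among 10670 genes tested. Pycr1, which catalyses the last step of proline synthesis in mitochondria, did not pass it, at 1.11 and 0.73 in wild-type cells, against 0.97 and 0.71 FPKM in the knockout.

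None of the 34 tested members passed the threshold for a genotype difference. Across all genes, 10 of 10670 did (0.0937%; limma on log2(FPKM + 1), Benjamini-Hochberg adjusted p under 0.05), 5 of them higher and 5 lower in the knockout, or 7 and 14 when globin genes were removed. At an unadjusted p under 0.05 there were 4 members, Sesn2, Psat1, Farsb and Qars (11.8%), beside 1218 of all genes (11.4%), a share close to the background. The median log2 difference of the 34 members, knockout minus wild type, was 0.01, and that of all genes tested was 0.067. The members' median was −0.063 with every library centred on its own median, −0.082 without wild-type library 2, −0.079 without knockout library 1, 0.23 with wild-type library 1 left out and 0.26 with knockout library 2 left out, so its sign turned on single libraries. Both knockout libraries lay above both wild-type libraries for 9 members (26.5%), against 29.9% of all genes, and below them for 0 members, against 10.8% of all genes. On the median-centred values, 9 members lay above and 5 below, against 19.9% and 20.1% of all genes. The values of single members are described in turn by role.

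Atf4 (gene ID 11911, chromosome 15, 80255184 to 80257545, mm10), the central factor, stood at 99.34 and 85.82 FPKM in wild-type libraries 1 and 2 and at 99.87 and 78.52 FPKM in knockout libraries 1 and 2. The 2 groups overlapped, and each genotype had its higher value in library 1. The log2 difference was −0.06 with a standard error of 0.17 (limma, adjusted p = 0.941). Its sign turned with the libraries used, and without knockout library 2 it was 0.11.

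Ddit3, which encodes the C/EBP-related factor CHOP that takes part in cell death under lasting stress, stood at 66.04 and 49.85 in wild-type cells, against 60.40 and 49.86 FPKM in the knockout. The 2 second libraries were nearly equal, and the difference of −0.06 on the log2 scale was smaller than its standard error of 0.18 (limma, adjusted p = 0.944). It was 0.14 without wild-type library 1. Ddit3 shares 4.0% of its exon bases with Mars on the opposite strand, and the sources used here do not say whether strand was kept. Atf3, a stress-induced repressor whose promoter window is printed above, stood at 2.15 and 1.49 in wild-type cells, against 1.49 and 1.00 FPKM in the knockout. The groups met at 1.49 FPKM without crossing, and the log2 difference was −0.33 with a standard error of 0.21 (limma, adjusted p = 0.648). It was −0.16 without wild-type library 1, −0.17 without knockout library 2, −0.50 without wild-type library 2 and −0.52 with a pseudocount of 0.1 in place of 1. It was the sole member at least 0.3 lower in the knockout on the log2 scale in both same-numbered pairs of libraries (2.94% of members tested, against 2.95% of all genes).

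Sesn2 (gene ID 230784, chromosome 4, 132492804 to 132510456, mm10) had the largest difference of any member. Its protein, sestrin 2, binds leucine and restrains the growth kinase complex mTORC1 when leucine is scarce. It stood at 17.07 and 17.34 FPKM in wild-type libraries 1 and 2 and at 31.91 and 34.08 FPKM in knockout libraries 1 and 2. The groups lay far apart compared with the spread within either genotype, with means of 17.2 ± 0.191 FPKM in wild type and 33.0 ± 1.53 FPKM in the knockout (SD, n = 2 each), a ratio of 1.92. On the log2 scale the difference was 0.90 with a standard error of 0.13 (limma, unadjusted p = 0.000365, adjusted p = 0.101), so that it missed the threshold over all genes. The call depended on the libraries: the limma adjusted p was 0.00014 without knockout library 1, 0.00201 without knockout library 2, 0.619 without the first wild-type library and 0.503 without the second. The size of the difference stayed between 0.82 and 0.95 under all 11 alternatives tried. Between about 1566 and 3103 fragments per library lay behind these values, and the gene shares no exon base with a neighbour.

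The remaining regulators gave small differences. Ppp1r15a, which encodes GADD34, the phosphatase subunit that returns eIF2 to its active state, stood at 104.14 and 112.66 in wild-type cells, against 103.29 and 114.92 FPKM in the knockout. The 4 values interleaved, and the log2 difference of 0.01 had a standard error of 0.13 (limma, adjusted p = 0.993). Its sign turned to −0.069 when libraries were centred on their medians. Trib3, a pseudokinase that dampens Atf4 and CHOP, was at 9.39 and 9.97 in wild-type cells, against 8.54 and 9.53 FPKM in the knockout, with overlapping groups. Chac1, an enzyme that degrades glutathione, was low throughout, at 1.15 and 0.79 in wild-type cells, against 1.41 and 1.33 FPKM in the knockout. Both knockout values of Chac1 lay above both wild-type values, and its log2 difference of 0.27 had a standard error of 0.18 (limma, adjusted p = 0.669). Of the 7 sensors and factors, 2 were higher in both knockout libraries (Sesn2 and Chac1) and 0 lower, against 29.9% and 10.8% of all genes. Their median log2 difference was −0.06. That median was −0.14 with median-centred libraries, and it ran from −0.052 to 0.073 as each library was left out in turn.

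**Figure D2:**
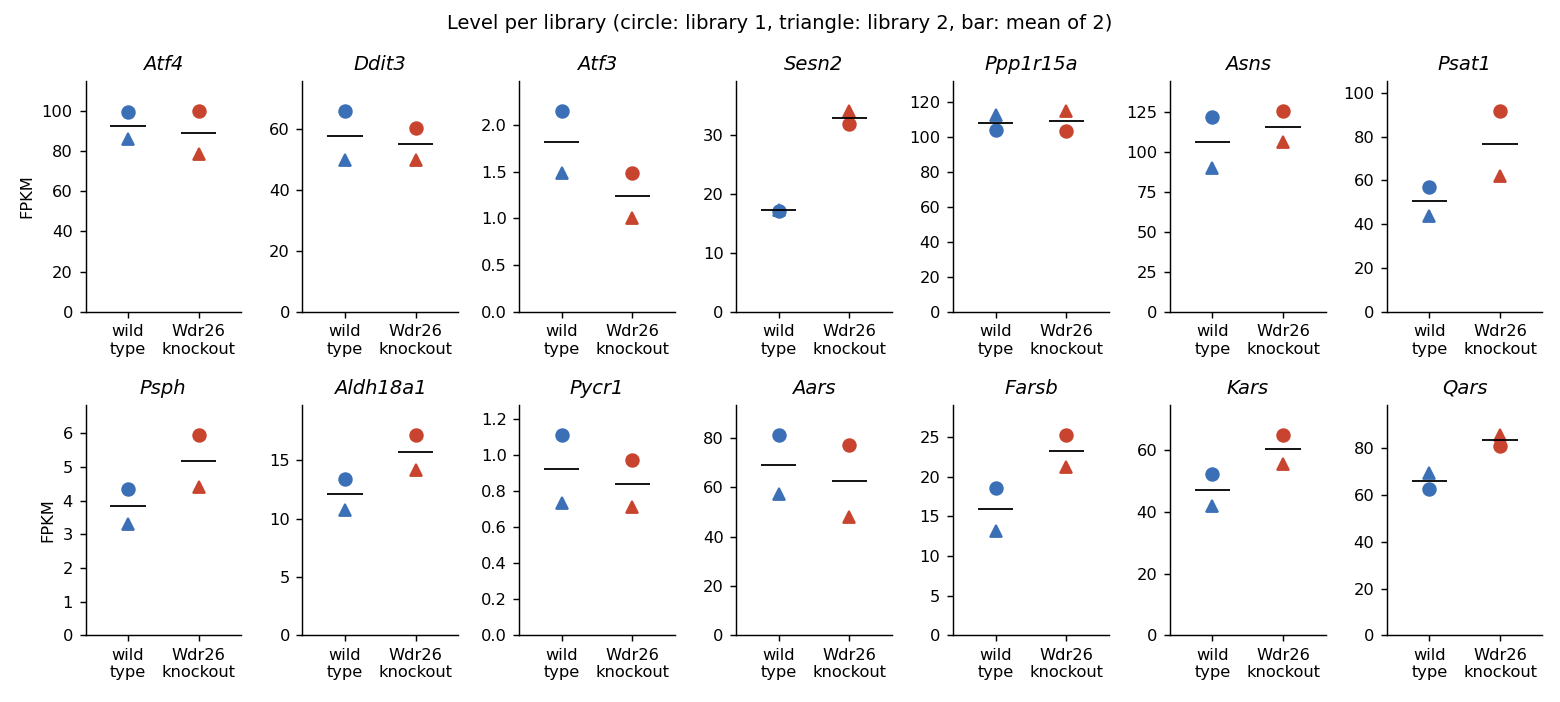
FPKM in each library (y axes, linear, from 0) of the 14 members chosen for full values; blue is wild type, red the Wdr26 knockout, circles library 1, triangles library 2 and bars the mean of 2. Sesn2, Psat1, Psph, Aldh18a1, Farsb, Kars and Qars have both knockout values above both wild-type values, whereas Atf4, Ddit3, Ppp1r15a, Asns, Pycr1 and Aars overlap and Atf3 meets at 1.49 FPKM.

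Among the enzymes, Asns makes asparagine from aspartate and glutamine and is the classic read-out of Atf4 activity. Its promoter window above holds a match on the gene strand. Asns (gene ID 27053, chromosome 6, 7675165 to 7693209, mm10) stood at 121.61 and 89.97 in wild-type cells, against 125.38 and 106.09 FPKM in the knockout. Wild-type library 1 lay between the knockout libraries, so the groups overlapped. The log2 difference of 0.14 had a standard error of 0.19 (limma, adjusted p = 0.87), and it was −0.076 without wild-type library 2.

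Serine is made from a glycolytic intermediate by Phgdh, Psat1 and Psph in turn. Phgdh, the entry step, stood at 36.02 and 27.92 in wild-type cells, against 44.02 and 26.36 FPKM in the knockout. The knockout values enclosed the wild-type ones, and the log2 difference of 0.10 had a standard error of 0.26 (limma, adjusted p = 0.932). It was −0.26 with knockout library 1 left out and 0.46 with knockout library 2 left out.

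Psat1 (gene ID 107272, chromosome 19, 15905123 to 15925059, mm10), the aminotransferase of the second step, stood at 56.84 and 43.94 FPKM in wild-type libraries 1 and 2 and at 91.64 and 61.86 FPKM in knockout libraries 1 and 2. Both knockout values lay above both wild-type values, while the knockout libraries also differed widely from each other. The group means were 50.4 ± 9.12 and 76.8 ± 21.1 FPKM (SD, n = 2 each), a ratio of 1.52. The log2 difference of 0.58 had a standard error of 0.23 (limma, unadjusted p = 0.0417, adjusted p = 0.409). It was 0.86 without knockout library 2 (limma, adjusted p = 0.0017) and 0.30 without knockout library 1 (limma, adjusted p = 0.448).

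Psph, the phosphatase that releases serine, was much less abundant, at 4.36 and 3.31 in wild-type cells, against 5.96 and 4.41 FPKM in the knockout. The groups were separated by 4.36 against 4.41 FPKM, and the log2 difference of 0.35 had a standard error of 0.20 (limma, adjusted p = 0.593). In the GENCODE M21 annotation, Psph overlaps an opposite-strand transcript of Cct6a over 10.4% of its exon bases. The RefSeq spans of the genes share only the stretch from 129787356 to 129787443 on chromosome 5. Cct6a, a chaperonin subunit gene with overlapping groups, stood at 69.69 and 54.26 in wild-type cells, against 70.22 and 45.41 FPKM in the knockout, and its part in the Psph values was not tested.

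Serine feeds the one-carbon pathway of mitochondria through Shmt2, which splits off glycine, and Mthfd2, which oxidises the folate carrier. Shmt2 stood at 33.97 and 22.95 in wild-type cells, against 41.16 and 19.38 FPKM in the knockout. The knockout values enclosed the wild-type ones. Its log2 difference of 0.02 had a standard error of 0.36, the largest of any member (limma, adjusted p = 0.993), and was −0.51 with knockout library 1 left out and 0.54 with knockout library 2 left out. Mthfd2 stood at 19.02 and 12.70 in wild-type cells, against 17.64 and 11.11 FPKM in the knockout, with overlapping groups and library 1 higher in each genotype. Its log2 difference of −0.14 had a standard error of 0.27 (limma, adjusted p = 0.911), and it was 0.13 with wild-type library 1 left out and 0.17 with knockout library 2 left out. Of the 6 enzymes, 2 were higher in both knockout libraries (Psat1 and Psph) and 0 lower, against 29.9% and 10.8% of all genes. Their median log2 difference was 0.12. That median was −0.12 without knockout library 1, −0.076 without wild-type library 2, 0.32 with wild-type library 1 left out and 0.50 with knockout library 2 left out.

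Aldh18a1, which encodes the enzyme of the first steps from glutamate to proline, stood at 13.42 and 10.75 in wild-type cells, against 17.16 and 14.16 FPKM in the knockout. The groups did not overlap, and the log2 difference of 0.35 had a standard error of 0.17 (limma, adjusted p = 0.529). The difference was nearly equal in the 2 same-numbered pairs, 0.33 and 0.37.

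Aminoacyl-tRNA synthetases join each amino acid to its tRNA. In animal cells part of them sit in a multi-synthetase complex, here represented by Dars, Eprs, Iars, Kars, Lars, Mars, Qars and Rars. Summed over the 20 genes, the level was 727.8 and 602.3 FPKM in wild-type libraries 1 and 2 and 784.9 and 639.4 FPKM in knockout libraries 1 and 2. The sums overlapped between genotypes and were lower in library 2 of each. The median log2 difference of the 20 was 0.01 and ran from −0.093 to 0.25 as each library was left out in turn, the highest value without knockout library 2. Both knockout libraries lay above both wild-type libraries for 4 genes (Farsb, Kars, Qars and Sars) and below for 0, against 29.9% and 10.8% of all genes. On the median-centred values, 4 of the 20 lay above and 4 below (Dars, Eprs, Mars and Rars), against 19.9% and 20.1% of all genes.

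Farsb (gene ID 23874, chromosome 1, 78417958 to 78488897, mm10) encodes the beta chain of phenylalanyl-tRNA synthetase. It stood at 18.63 and 13.13 in wild-type cells, against 25.28 and 21.28 FPKM in the knockout. Its log2 difference, the largest among the synthetases, was 0.54 with a standard error of 0.20 (limma, unadjusted p = 0.0331, adjusted p = 0.39). It was 0.66 without knockout library 2 (limma, adjusted p = 0.0413) and 0.30 without wild-type library 2 (limma, adjusted p = 0.991). The gene shares 9.5% of its exon bases with Sgpp2 on the opposite strand, which was itself listed at no more than 0.02 FPKM.

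Farsa, the alpha chain of the same enzyme, stood at 44.11 and 40.09 in wild-type cells, against 49.44 and 36.16 FPKM in the knockout, where the values enclosed the wild-type ones. Its log2 difference of 0.01 had a standard error of 0.18 (limma, adjusted p = 0.993). The difference between the 2 chains was not tested.

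Qars, the glutaminyl-tRNA synthetase and the most abundant synthetase gene, stood at 62.60 and 69.29 in wild-type cells, against 81.04 and 85.82 FPKM in the knockout. The gap between the groups exceeded the distance within either of them, and the log2 difference was 0.34 with a standard error of 0.13 (limma, unadjusted p = 0.0424, adjusted p = 0.413). Kars, the lysyl-tRNA synthetase, stood at 52.43 and 41.95 in wild-type cells, against 65.08 and 55.60 FPKM in the knockout. Its groups did not overlap, and the log2 difference of 0.35 had a standard error of 0.16 (limma, adjusted p = 0.507). Sars, the seryl-tRNA synthetase, stood at 35.01 and 31.51 in wild-type cells, against 40.06 and 37.83 FPKM in the knockout. It gave a smaller difference of 0.22 on the log2 scale, with a standard error of 0.13 (limma, adjusted p = 0.614).

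Aars, the alanyl-tRNA synthetase, carries 2 motif matches and was among the most abundant synthetase genes. It stood at 81.17 and 57.07 in wild-type cells, against 77.03 and 48.11 FPKM in the knockout. The groups overlapped, and the libraries within a genotype lay farther apart than the genotypes did. The log2 difference of −0.16 had a standard error of 0.27 (limma, adjusted p = 0.898). It was −0.49 when knockout library 1 was left out and 0.18 when knockout library 2 was. In the GENCODE M21 annotation, Exosc6, an exosome subunit gene on the same strand, shares 14.3% of the exon bases of Aars. In RefSeq, Aars ends at 111055569 and Exosc6 starts at 111056339, so the genes do not overlap there. Exosc6 stood at 11.70 and 9.40 in wild-type cells, against 14.05 and 9.61 FPKM in the knockout. The part of Exosc6 in the Aars values was not tested.

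The other 14 synthetases had log2 differences between −0.19 (Iars) and 0.28 (Hars), each with overlapping groups. Hars, the histidyl-tRNA synthetase, stood at 58.37 and 49.54 in wild-type cells, against 74.08 and 57.97 FPKM in the knockout, so wild-type library 1 lay just above knockout library 2. In the GENCODE M21 annotation, Hars shares 8.0% of its exon bases with Hars2 on the opposite strand. The RefSeq spans of the genes share only the stretch from 36783202 to 36783205 on chromosome 18. Iars, the isoleucyl-tRNA synthetase, stood at 35.45 and 23.44 in wild-type cells, against 31.98 and 19.79 FPKM in the knockout. Eprs, which charges both glutamate and proline tRNAs, stood at 26.49 and 24.13 in wild-type cells, against 24.14 and 21.01 FPKM in the knockout, so that knockout library 1 lay just above wild-type library 2. Within the multi-synthetase complex the median log2 difference was −0.03 over 8 genes, and outside it 0.07 over 12 genes, and the difference between these medians was not tested.

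**Figure D3:**
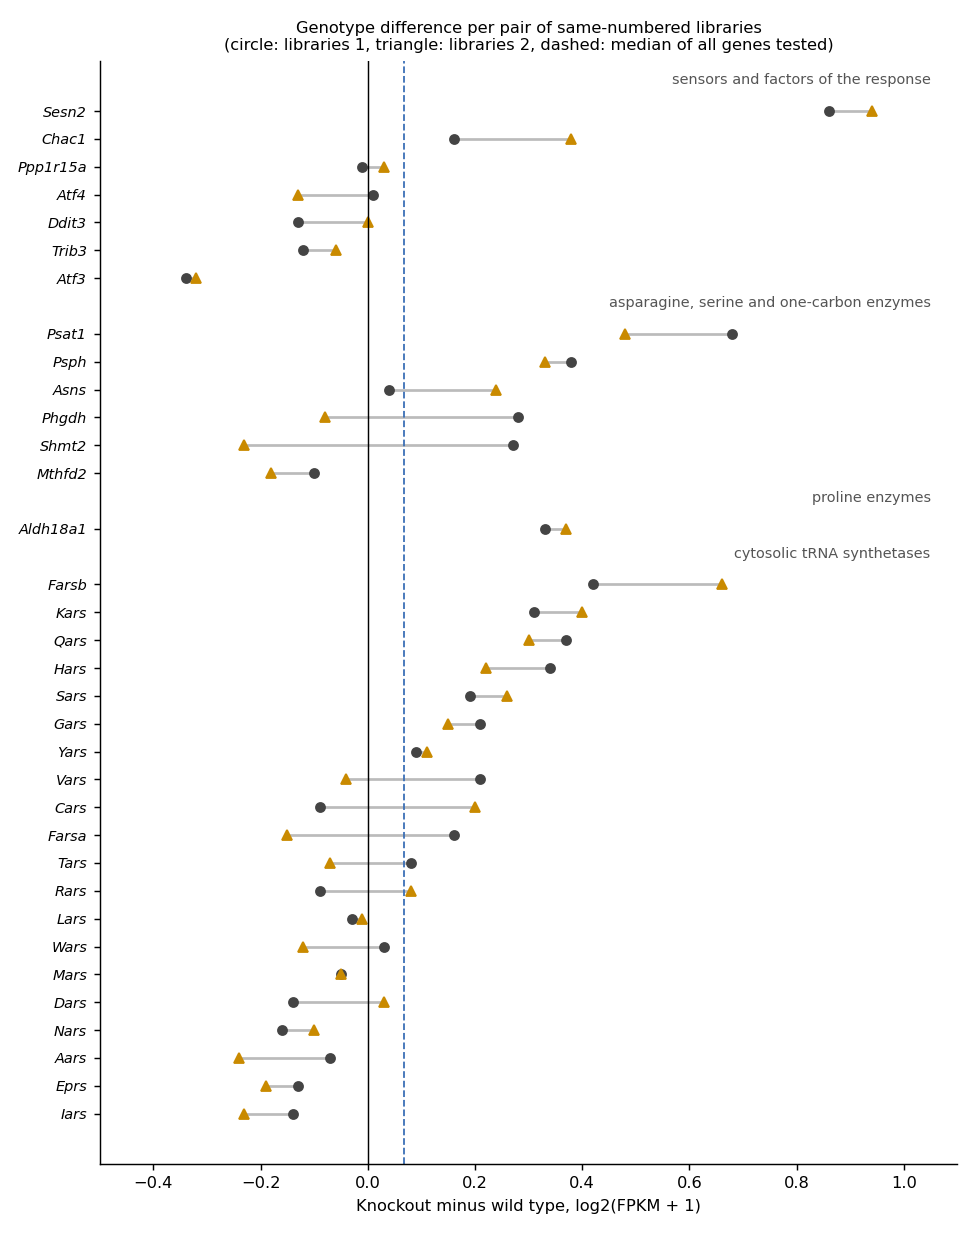
Knockout minus wild type on the log2(FPKM + 1) scale (x axis) for the 34 tested members by role, with circles for the libraries numbered 1 and triangles for those numbered 2; the dashed line is the median of all genes tested, 0.067. Sesn2 stands alone at 0.86 and 0.94, while most synthetases scatter around 0.

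The size of the difference was at least 0.3 in the same direction in both same-numbered pairs for 8 members. Higher in the knockout were Sesn2, Psat1, Psph, Aldh18a1, Farsb, Kars and Qars, 7 of 34 (20.6%) against 9.88% of all genes, and Atf3 alone was lower. No match to the motif was found in the promoters of these 7. Among the 9 members higher in both knockout libraries, 1 had a match (11.1%), namely Chac1. The members with a match and a tested value lay between −0.33 (Atf3) and 0.27 (Chac1) on the log2 scale. The absence of these letters from a window of this length says nothing about a factor.

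For 8 of the 34 members the genotype difference was larger than both differences between libraries of 1 genotype (23.5%, against 30.4% of all genes). In wild type and knockout alike, library 2 gave the lower value for 30 of the 34 members tested (88.2%), against 46.5% of all genes. The other 4, Sesn2, Trib3, Ppp1r15a and Qars, were higher in library 2 in both (11.8%, against 24% of all genes). These numbers only name the libraries, and nothing in the labels says what a number stands for. The median difference, library 2 minus library 1, was −0.31 on the log2 scale in wild type and −0.29 in the knockout, beside −0.095 and −0.040 for all genes tested.

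With every library centred on its median, a scaling chosen after the values had been seen, 26 members were lower in library 2 in both genotypes (76.5%, against 33.8% of all genes) and 4 were higher (11.8%, against 38.7%). With totals rescaled after removal of the globin genes, likewise chosen afterwards, 28 were lower. The share of all genes was not computed on that scale, so this count has no background beside it. Alpha globin (Hba-a1) stood at 135652.46 and 168691.36 FPKM in wild-type libraries 1 and 2 and at 122154.36 and 145240.55 FPKM in knockout libraries 1 and 2, so it was higher in library 2 of each.

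By role, all 6 enzymes for asparagine, serine and one-carbon units were lower in library 2 in both genotypes, with medians of −0.40 in wild type and −0.59 in the knockout. Shmt2 differed most, by −0.55 in wild type and −1.05 in the knockout. Phgdh differed by −0.36 and −0.72, and Mthfd2 by −0.55 and −0.62. Of the synthetases, 12 of 12 outside the multi-synthetase complex and 7 of 8 inside it were lower in library 2 in both genotypes. On the median-centred values, the counts were 12 of 12 outside and 4 of 8 inside, against 33.8% of all genes. Outside the complex the medians were −0.39 in wild type and −0.35 in the knockout, and inside it −0.18 and −0.13. Tars had the largest difference of a synthetase in the knockout, −0.73, after −0.58 in wild type, whereas Mars differed by −0.07 in each. Dars counted as lower in the knockout by 31.86 against 31.76 FPKM, a difference of −0.00 on the log2 scale.

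The sensors and factors were mixed, with 4 of 7 lower in library 2 in both genotypes and 3 of 7 higher. Atf4 differed by −0.21 in wild type and −0.34 in the knockout, and Ddit3 by −0.40 and −0.27. Of the markers of dividing cells, 4 of 4 were lower in library 2 in both genotypes, against 46.5% of all genes. On the median-centred values 3 of 4 were lower, against 33.8% of all genes. The differences ran from −0.68 to −0.06 in wild type and from −1.06 to −0.08 in the knockout. The summed level of the 4 markers was 318.7 and 246.5 FPKM in wild-type libraries 1 and 2. In knockout libraries 1 and 2 it was 279.8 and 201.5 FPKM. Pcna, the sliding clamp of replication, differed most. It stood at 116.85 and 72.57 in wild-type cells, against 104.83 and 49.59 FPKM in the knockout. The part of these markers in the members' values was not tested.

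**Figure D4:**
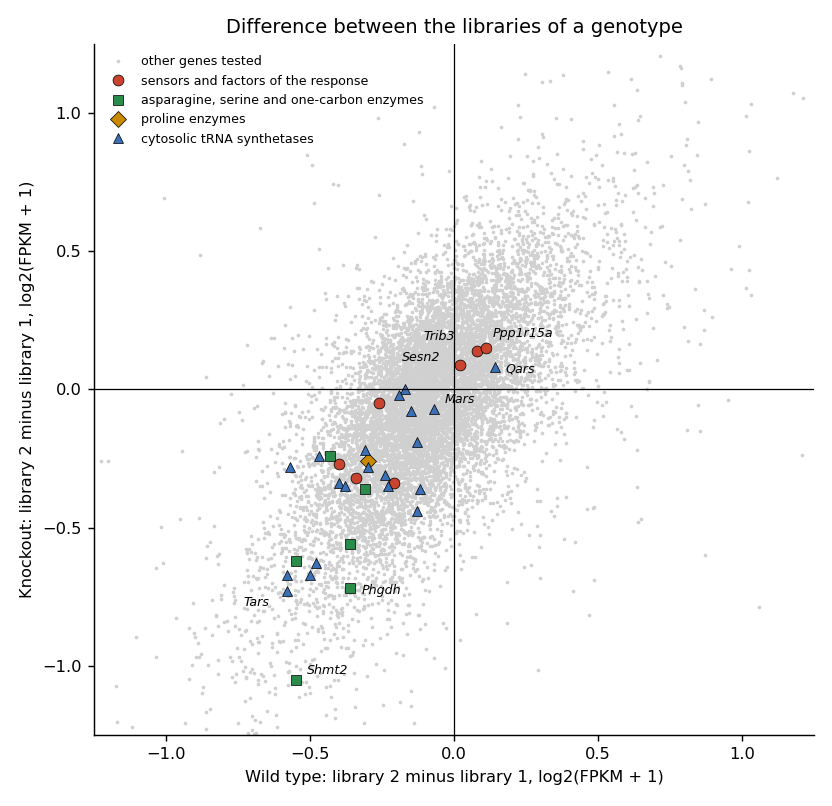
Library 2 minus library 1 on the log2(FPKM + 1) scale in wild type (x axis) and in the knockout (y axis); grey points are other genes tested (88 genes beyond 1.25 on either axis are not drawn) and coloured symbols are members by role. In the lower left, where library 2 is lower in both genotypes, lie 30 of the 34 members, with Shmt2 lowest, and Sesn2, Trib3, Ppp1r15a and Qars lie in the upper right.

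Other genes of the pathway were examined by list. Of 16 gene symbols listed for eIF2 kinases, eIF2 and its exchange factor, 15 were found. All 15 were tested, and 0 passed the threshold in either direction. In both knockout libraries 4 were higher and 2 lower (29.9% and 10.8% of all genes), with a median log2 difference of 0.02. On the median-centred values, 0 were higher and 5 lower (19.9% and 20.1% of all genes). The groups of Eif2ak4 and Eif2ak3 overlapped on that scale. The amino acid sensor Gcn2 (Eif2ak4) stood at 10.75 and 11.03 in wild-type cells, against 12.18 and 15.78 FPKM in the knockout (log2 difference 0.32 with a standard error of 0.16, limma adjusted p = 0.543). The endoplasmic reticulum kinase Perk (Eif2ak3) stood at 6.81 and 5.34 in wild-type cells, against 6.89 and 7.80 FPKM in the knockout. Hri (Eif2ak1), the heme-regulated kinase, was the most abundant of the kinases, at 88.96 and 97.25 in wild-type cells, against 87.68 and 98.60 FPKM in the knockout, with interleaved groups.

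Of 19 further Atf4 targets and partners, 16 were tested and 0 passed the threshold, with 6 higher and 0 lower in both knockout libraries (29.9% and 10.8% of all genes) and a median log2 difference of 0.14. Nupr1, a small stress-induced chromatin protein gene, stood at 74.05 and 53.04 in wild-type cells, against 134.94 and 104.16 FPKM in the knockout. Its groups lay well apart, and its log2 difference of 0.91 had a standard error of 0.21 (limma, adjusted p = 0.23). Gpt2, a mitochondrial alanine aminotransferase gene, stood at 3.58 and 3.03 in wild-type cells, against 5.01 and 5.76 FPKM in the knockout (log2 difference 0.57 with a standard error of 0.16, limma adjusted p = 0.287).

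Of 9 amino acid carriers, 7 were tested and 0 passed the threshold, with 0 higher and 1 lower in both knockout libraries (29.9% and 10.8% of all genes). The lower one was Slc6a9, the glycine transporter GlyT1, which supplies glycine for heme synthesis in red cell precursors. It stood at 73.77 and 61.80 in wild-type cells, against 53.64 and 31.56 FPKM in the knockout, and its log2 difference was −0.70 with a standard error of 0.26 (limma, adjusted p = 0.391). Beside it, the erythroid markers gave 5 of 8 lower and 0 of 8 higher in both knockout libraries, and their part in this value was not tested. Library 2 gave the lower value for all 7 carriers tested, in wild type and knockout alike, against 46.5% of all genes. On the median-centred values all 7 were lower too, against 33.8% of all genes. Before centring, the count was 12 of 17 for mitochondrial synthetases and 8 of 12 for other folate, serine and proline enzymes. It was 8 of 13 for the other unfolded protein response genes and 8 of 15 for the eIF2 list. For the further Atf4 targets and partners it was 7 of 16, and for the synthetase complex scaffolds 2 of 3.

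Of 15 gene symbols listed for other folate, serine and proline enzymes, 13 were found and 12 tested, and 0 passed the threshold. In both knockout libraries 4 were higher and 1 lower (29.9% and 10.8% of all genes), with a median of 0.06. Pycrl, which encodes a cytosolic enzyme for the last step of proline synthesis, stood at 9.33 and 10.60 in wild-type cells, against 14.78 and 14.93 FPKM in the knockout (log2 difference 0.53 with a standard error of 0.14, limma adjusted p = 0.26). Mthfd1l, the mitochondrial formate-releasing enzyme gene, was the lower one, at 8.27 and 8.64 in wild-type cells, against 7.67 and 5.91 FPKM in the knockout.

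The 17 mitochondrial synthetases were all tested and 0 passed the threshold, with 5 higher and 0 lower in both knockout libraries (29.9% and 10.8% of all genes) and a median log2 difference of 0.16. Aars2, the mitochondrial alanyl-tRNA synthetase, stood at 9.17 and 9.52 in wild-type cells, against 17.16 and 15.63 FPKM in the knockout. These groups lay far apart compared with their spread (log2 difference 0.75 with a standard error of 0.13, limma adjusted p = 0.152), whereas its cytosolic counterpart Aars overlapped between genotypes, and the difference between these genes was not tested. Fars2, the mitochondrial phenylalanyl-tRNA synthetase, stood at 10.64 and 11.28 in wild-type cells, against 15.59 and 19.37 FPKM in the knockout (log2 difference 0.62 with a standard error of 0.15, limma adjusted p = 0.249). None of the 14 promoters found for this list held the motif.

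The 3 scaffold genes of the multi-synthetase complex were all tested, and 0 passed the threshold. In both knockout libraries 1 was higher and 1 lower (29.9% and 10.8% of all genes). On the median-centred values 0 were higher and 1 lower (19.9% and 20.1% of all genes), and the groups of Aimp1 overlapped there. Aimp1 stood at 25.60 and 26.64 in wild-type cells, against 28.94 and 33.83 FPKM in the knockout, while Aimp2 stood at 33.24 and 31.88 in wild-type cells, against 30.42 and 24.86 FPKM in the knockout. Their log2 differences were 0.25 and −0.24 (limma, adjusted p = 0.586 and 0.641).

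The 13 genes of the other branches of the unfolded protein response, which answer to misfolded protein in the endoplasmic reticulum, were all tested and 0 passed the threshold. In both knockout libraries 2 were higher and 1 lower (29.9% and 10.8% of all genes), and the median log2 difference was 0.08. Pdia4, a disulfide isomerase gene, stood at 20.27 and 15.76 in wild-type cells, against 26.56 and 22.31 FPKM in the knockout (log2 difference 0.42 with a standard error of 0.17, limma adjusted p = 0.434). Dnajb9, a co-chaperone gene under the control of Xbp1, stood at 3.27 and 3.07 in wild-type cells, against 2.27 and 2.71 FPKM in the knockout.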

How the data were processed

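RNA of 4 DS19 samples had been extracted with Trizol, depleted of ribosomal RNA and sequenced on an Illumina HiSeq instrument, per the labels' protocols. The authors deposited 1 table whose header names no unit. The deposited values were taken to be FPKM because, multiplied by transcript length, they sum to between 1.02e+09 and 1.04e+09 per library. The submitters' processing notes name TopHat2 and mm10, with no version. Which program gave the values is not stated in the sources used here. Symbols turned into dates by a spreadsheet (24) were restored through the gene ID, and 16316 IDs matched the RefSeq gene table of GRCm38.p6 (mm10). Transcripts assembled from the reads, per the file headers, also enter the values of Psph, Pycr1, Aars, Farsa, Iars, Qars, Vars and Wars.

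Groups and library numbers came from the genotype and title labels. Values were tested as log2(FPKM + 1), a scale that understates changes of low genes, over genes that reached 1 FPKM in 2 or more libraries. The test was limma 3.58.1 in R 4.3.3 with a mean-variance trend and no covariate, two-sided, with Benjamini-Hochberg adjustment over all 10670 genes and a threshold of 0.05. It was run on simulated data with independent noise, equal in size for all genes, and no difference between libraries. That setting cannot show how the test behaves with library differences like those seen here. An exact permutation test of 2 against 2 libraries has 0.333 as its smallest p and was not used. Means carry the SD over 2 libraries. Depth was estimated from the smallest steps of the values, assuming a loss of 200 bases of effective length; it is approximate, and no counting interval was computed. Exon overlaps came from GENCODE M21. Tables were made with pandas 2.3.3 and figures with matplotlib 3.10.9.

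The members, role groups, pathway lists and markers were chosen with earlier results of these data known, so no p is adjusted over a list. The rule for full values took members at least 0.3 different (log2) in the same direction in both same-numbered pairs, with Atf4, Ddit3 and Asns and the 2 most abundant members of each role. From each pathway list it took the genes past the threshold or else the 2 with the largest difference and separate groups, and promoter windows were shown for at most 6 members with a match. Phgdh, Shmt2, Mthfd2, Trib3, Chac1, Farsa, Sars, Hars, Iars, Eprs, Tars, Mars, Dars, Eif2ak1, Pcna, Slc4a1, Tfrc and the overlapping neighbours were named after their values had been seen. So were Pf4 and Gp1bb. Alternatives were median-centred libraries, 11 globin genes left out with totals rescaled, a pseudocount of 0.1, no filter, a mean of at least 5 FPKM, no trend, the library number as a block, and leaving out each library in turn.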

Additional observations from a re-analysis of the deposited data

How the results depend on the processing

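The count of genes past the threshold (10, with 5 higher and 5 lower) was 21 with globin genes left out (7 higher, 14 lower), 0 without a filter (limma, 1692 at an unadjusted p under 0.05), 2 at a mean of at least 5 FPKM, and from 0 to 720 as each library was left out. It was 0 without either wild-type library (limma, 574 each at an unadjusted p under 0.05), 314 without knockout library 2 and 720 without knockout library 1, where the lone library of a genotype is assumed to vary like the others. With the library number as a replicate block the count was 1863 (1388 higher, 475 lower) and 7 members passed, all higher: Sesn2, Psat1, Aldh18a1, Farsb, Hars, Kars and Qars. The numbers only share a name; the difference between libraries correlated at 0.606 across 10670 genes between the genotypes, and genes are not independent replicates. The median of the sensors and factors (−0.06) was −0.14 with median-centred libraries, −0.12 without globin genes and −0.052 to 0.073 with 1 library left out. That of the proline enzymes (0.35) was 0.15 without a filter, which adds Pycr1, and that of the synthetases ran from −0.093 to 0.25 with 1 library left out. The difference of Ppp1r15a turned to −0.069 with median-centred libraries and −0.049 without globin genes. With 1 library left out, differences ran from −0.23 to 0.11 for Atf4, −0.26 to 0.14 for Ddit3, −0.068 to 0.085 for Ppp1r15a, −0.076 to 0.35 for Asns and −0.49 to 0.18 for Aars. The causes of these changes were not tested, apart from the smaller or larger sets of genes and libraries named. Chac1 (0.27) was 0.48 with a pseudocount of 0.1. With 1 library left out, the difference changed sign for 19 of the 34 members tested, and the median of all members ran from −0.082 to 0.26. Between 35 and 113 fragments per library lay behind Atf3 and Chac1, which limits the precision of both.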
